A study of Mus musculus with 31 samples.

Results

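The genes of the primary (azurophil) granule enzymes and of the proteins that activate, inhibit and package them were followed through 9 sorted populations of mouse bone marrow. The group comprised 9 of the 19938 genes measured, chosen by symbol in the probe annotation: Mpo, Ctsg, Elane, Prtn3, Cst7, Nkg7, Ctsc, Serpinb1a and Srgn. Each was represented by 1 probe that names no other gene, and no filter on low values was applied, so all 9 entered every comparison.

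All cells came from wild-type C57BL/6 bone marrow, without treatment. The stem and multipotent cells were Lin-/cKit+/Sca1+. Among these, long-term stem cells (LT-HSC, n = 4) were Flk2-, CD48- and CD150+, and short-term stem cells (ST-HSC, n = 3) were Flk2- and negative for both CD48 and CD150. The multipotent progenitors were MPP2 (n = 3; Flk2-, positive for both CD48 and CD150), MPP3 (n = 3; Flk2-, CD48+, CD150-) and MPP4 (n = 5; Flk2+). Common myeloid progenitors (CMP, n = 3) and granulocyte-monocyte progenitors (GMP, n = 4) were Lin-, cKit+ and CD34+, the former without and the latter with Fc gamma receptor. Pre-granulocytes (PreGr, n = 3) were Mac1+ with intermediate Gr1, and granulocytes (Gr, n = 3) Mac1+ with high Gr1. Each sample held 20000 double-sorted cells whose RNA was amplified before it was hybridised to a whole-transcript array. The labels describe biological replicates but name no animal, age, sex or pool, so a p-value here measures the spread between these samples. A related study used the stem cell and GMP samples as its controls too.

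Primary granules are the first granules that a developing neutrophil fills, at the promyelocyte stage, and they carry a haem peroxidase and a family of cationic serine proteases. The proteases are made as inactive precursors, lose an amino-terminal dipeptide to cathepsin C, and are stored bound to the negatively charged chains of serglycin. Mature neutrophils keep the proteins in their granules long after transcription of the genes has stopped, so RNA and protein of these enzymes need not run in parallel.

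The promoters of the peroxidase gene and the 3 serine protease genes are shown as those of the 4 enzymes, all highest in GMP. They were chosen with their matches known, so it is no finding that each holds the 6 bases GAGGAA, a core sequence recognised by the myeloid factor PU.1. The windows run from 250 bases before to 50 bases after the transcription start, as given by RefSeq on GRCm38.p6, and are written 5′ to 3′ on the strand of the gene. Capitals mark matches to GAGGAA and, in Ctsg alone of these 4, to TGNGGT (a core motif of RUNX factors, here on the opposite strand).
Mpo (chr11:87793534-87793833, + strand): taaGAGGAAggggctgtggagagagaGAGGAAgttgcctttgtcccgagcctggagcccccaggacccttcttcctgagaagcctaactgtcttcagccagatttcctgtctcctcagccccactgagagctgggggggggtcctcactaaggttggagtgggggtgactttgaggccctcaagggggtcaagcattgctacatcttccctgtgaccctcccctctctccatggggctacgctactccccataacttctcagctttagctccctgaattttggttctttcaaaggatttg
Ctsg (chr14:56102525-56102824, - strand): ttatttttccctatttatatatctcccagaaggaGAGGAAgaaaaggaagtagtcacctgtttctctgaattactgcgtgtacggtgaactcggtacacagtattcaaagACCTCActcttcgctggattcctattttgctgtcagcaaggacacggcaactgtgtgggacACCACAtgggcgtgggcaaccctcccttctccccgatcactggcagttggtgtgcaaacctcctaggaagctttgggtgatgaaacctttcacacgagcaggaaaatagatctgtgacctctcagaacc
Elane (chr10:79886062-79886361, + strand): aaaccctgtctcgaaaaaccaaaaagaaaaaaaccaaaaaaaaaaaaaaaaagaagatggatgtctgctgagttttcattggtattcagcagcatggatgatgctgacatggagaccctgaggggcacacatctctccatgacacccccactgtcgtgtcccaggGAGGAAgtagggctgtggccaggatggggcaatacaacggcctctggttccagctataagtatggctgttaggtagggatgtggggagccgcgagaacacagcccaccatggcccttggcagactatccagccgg
Prtn3 (chr10:79879417-79879716, + strand): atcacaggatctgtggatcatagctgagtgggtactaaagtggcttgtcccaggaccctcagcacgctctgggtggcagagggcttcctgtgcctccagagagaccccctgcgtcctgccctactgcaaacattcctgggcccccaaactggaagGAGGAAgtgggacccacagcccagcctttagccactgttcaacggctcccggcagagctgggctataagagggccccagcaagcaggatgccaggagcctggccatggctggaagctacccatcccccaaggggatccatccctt
GAGGAA was searched on both strands and began at -247 and -224 in Mpo, -216 in Ctsg, -85 in Elane and -95 in Prtn3, counted from the start. It occurred in 28.3% of 32851 promoters of the same length, and among the other members in Ctsc, which was highest in PreGr, but not in Cst7 or Nkg7, which were also highest in GMP. TGNGGT occurred in 45.8% of promoters, and TTNNGNAA, a core of C/EBP sites, in 40.7%. TTNNGNAA had no match in these 4 windows, which says only that these letters are not there. Of the 9 members 8 had a promoter entry, and no match was taken as a binding site.

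The deposited values are log2 values, and the arrays fell into 5 sets that share identical values within a set and differ in their medians, from 6.19 to 7.83. The labels do not name these sets. Set 1 held LT-HSC 1 to 3. In set 2 were GMP 4, LT-HSC 4, MPP4 4 and 5 and MPP3 3. Set 3 held the ST-HSC and MPP2 arrays with MPP3 1 and 2. Set 4 held the CMP arrays with MPP4 1 to 3, and set 5 held GMP 1 to 3 with the PreGr and Gr arrays. All levels below are log2 values after quantile normalization of the 31 arrays, and changes are differences of population means with their standard error (SE). Each change was estimated with limma, first with the population means alone (the quantile-normalized fit) and then with the set as a block. The words rose and fell are kept for genes that both fits called in the same direction at an adjusted p under 0.05. Comparisons with LT-HSC rest in the blocked fit on LT-HSC 4, and those of MPP3 or CMP with GMP on GMP 4. For MPP3 against LT-HSC and GMP against MPP3, the blocked change equals the difference of 1 pair of arrays in set 2. Its SE comes from the spread over all arrays, not from replicates of that pair. Probes differ in brightness, so levels are compared between populations for a gene and never between genes. Of the genes of the sort markers, Slamf1 (CD150) averaged 8.71 for LT-HSC and 6.83 for MPP2, the CD150+ gates, but 5.05 for ST-HSC. Flt3 (Flk2) was highest in MPP4 at 11.27, but the Flk2- gates differed, with 8.21 in LT-HSC and 8.18 in MPP2 against 9.96 in ST-HSC and 9.72 in MPP3. Ly6g, a Gr1 antigen, stood at 12.82 in Gr and 5.33 in GMP.

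Mpo encodes myeloperoxidase, the haem enzyme that makes hypochlorous acid from hydrogen peroxide and chloride. Its level in LT-HSC was 6.65, 6.82, 6.84 and 6.44 on the 4 arrays. The 3 ST-HSC arrays stood at 7.60, 8.84 and 8.02, all above every LT-HSC array. MPP2 stood at 9.81, 10.81 and 10.61, and the 5 MPP4 arrays at 10.93, 10.91, 10.48, 11.68 and 11.67, the last pair from set 2. In MPP3 the level was 12.74, 12.29 and 12.40, above every MPP2 and MPP4 array. CMP followed at 12.74, 12.61 and 12.71, and GMP at 13.12, 13.26, 13.26 and 13.10. The highest value of any gene on these normalized arrays was 13.75. PreGr stood at 12.80, 12.91 and 12.58 and Gr at 11.68, 11.03 and 10.23. Ordered by mean, LT-HSC, ST-HSC and MPP2 did not overlap, MPP2, Gr and MPP4 overlapped, MPP3, CMP and PreGr overlapped, and GMP lay above all of them.

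Ctsg encodes cathepsin G, a serine protease of chymotrypsin-like specificity. Its LT-HSC arrays stood at 5.61, 6.16, 6.20 and 6.52 and its ST-HSC arrays at 6.47, 6.39 and 6.47, which overlap. MPP2 stood at 7.22, 7.61 and 7.61, the 5 MPP4 arrays between 8.30 and 9.29 with a median of 8.75, and MPP3 at 11.11, 10.30 and 9.78. These 3 populations did not overlap each other or the stem cells. CMP stood at 11.76, 11.56 and 11.72, GMP at 12.63, 12.82, 12.75 and 12.44, PreGr at 11.91, 12.09 and 11.24 and Gr at 10.77, 9.46 and 8.68. Only CMP and PreGr overlapped among CMP, GMP and PreGr.

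Elane encodes neutrophil elastase. It lay in a narrow band in the LT-HSC, ST-HSC, MPP2 and MPP4 arrays, from 6.67 in MPP4 3 to 7.48 in MPP2 2, and neighbouring population means in this band overlapped. Above this band lay MPP3 at 9.62, 8.71 and 8.24 and CMP at 9.23, 8.93 and 9.05. GMP reached 11.81, 12.01, 11.94 and 11.27 and PreGr 11.15, 11.35 and 10.51, which overlap. Gr stood at 9.99, 8.68 and 8.16.

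Prtn3 encodes proteinase 3, a close relative of elastase. Its level was 8.53, 8.71, 8.75 and 7.53 in LT-HSC and 9.46, 8.68 and 8.16 in MPP3, with all populations below CMP overlapping their neighbours in the order of means. The CMP arrays stood at 9.53, 9.19 and 9.34. GMP stood at 11.26, 11.50, 11.52 and 9.96, where the last array is the one of set 2, and PreGr at 10.90, 11.04 and 10.12. Gr stood at 9.61, 8.34 and 8.37.

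Ctsc encodes cathepsin C, the cysteine protease that activates the serine proteases, and Cst7 encodes cystatin F, a cysteine protease inhibitor that acts on cathepsin C. Cst7 stood at 6.69, 6.41, 6.43 and 6.73 in LT-HSC, between 7.97 and 9.25 in MPP4 and at 9.80, 8.86 and 9.02 in MPP3. It reached 10.73, 9.81 and 10.53 in CMP and 11.81, 11.73, 11.62 and 11.40 in GMP, and stood at 10.17, 10.67 and 9.91 in PreGr and 9.63, 8.38 and 7.91 in Gr. GMP arrays lay above all others for Cst7. Ctsc had another pattern: its arrays stood at 9.31, 9.78, 9.45 and 9.09 in LT-HSC, 7.02, 9.13 and 8.76 in MPP2 and 9.72, 9.69, 9.53 and 9.51 in GMP, and it was highest at 10.83, 10.52 and 11.13 in PreGr. Only PreGr did not overlap the next population for Ctsc.

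Serpinb1a encodes a cytosolic inhibitor of elastase, proteinase 3 and cathepsin G. Its mean was lowest in LT-HSC, with arrays at 8.42, 8.83, 8.55 and 8.21 that overlap ST-HSC and MPP2. MPP3 stood at 9.53, 9.49 and 9.16 and GMP at 10.69, 10.79, 10.69 and 10.27. PreGr stood at 11.11, 11.08 and 10.84 and Gr at 11.34, 11.34 and 11.18. From CMP on, no neighbouring populations overlapped. Srgn encodes serglycin, and its 9 population means spanned 0.79 log2 units, from 12.05 in CMP to 12.85 in Gr. The 3 Gr arrays at 12.81, 12.82 and 12.91 lay above all others. Nkg7 encodes a granule membrane protein best known from cytotoxic lymphocytes. It stood at 8.01, 7.97, 8.32 and 7.88 in LT-HSC, 10.24, 10.07 and 10.27 in MPP2, 11.43, 11.63, 11.59 and 11.11 in GMP and 9.72, 8.22 and 7.40 in Gr.

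**Figure D1:**
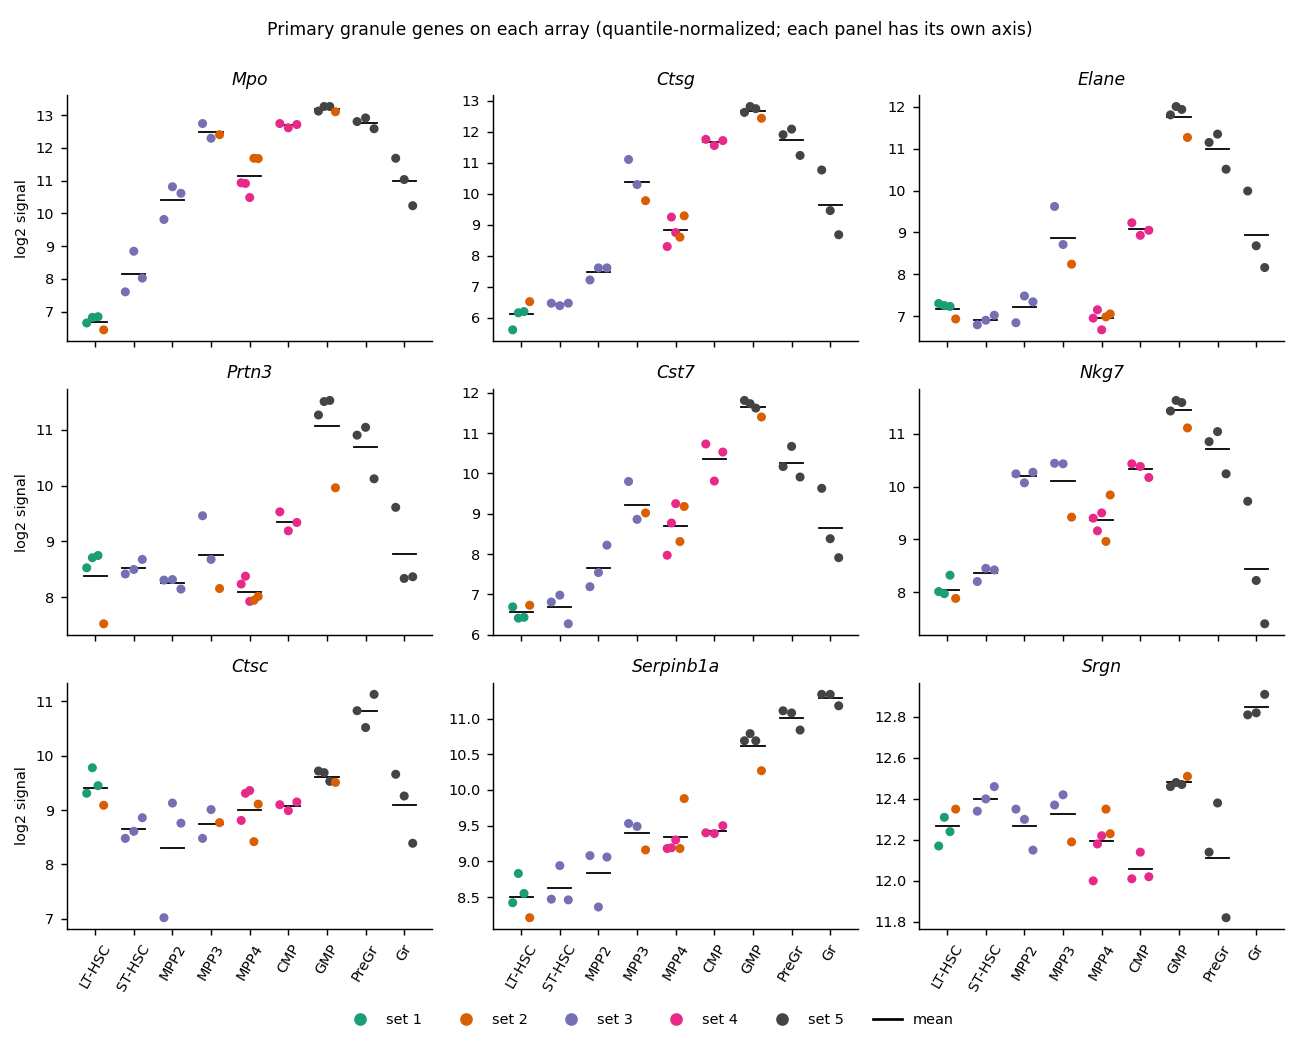
Log2 signal of the 9 genes (vertical axes, 1 per gene, different scales) on each array of the 9 sorted populations (horizontal axis), with points coloured by set of arrays and bars at the population means. The means of Mpo, Ctsg, Elane, Prtn3, Cst7 and Nkg7 are highest in GMP, that of Ctsc in PreGr, and those of Serpinb1a and Srgn in Gr.

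Of the 9 genes, 6 had their highest mean in GMP, but they covered the way there differently. Expressed as a percentage of the log2 distance between the LT-HSC and GMP means, Mpo had covered 57.3% in MPP2, 68.4% in MPP4, 89.0% in MPP3 and 92.3% in CMP. Ctsg had covered 20.8%, 41.6%, 65.4% and 85.1% in the same order, and Cst7 21.4%, 42.0%, 52.5% and 74.8%. Elane stood at 0.9% in MPP2 and -4.8% in MPP4, then at 36.6% in MPP3 and 41.3% in CMP. Prtn3 stood at -4.3%, -10.3%, 14.5% and 36.4%. Nkg7 had covered 63.3% in MPP2 and 39.1% in MPP4, and Serpinb1a 15.9% in MPP2 and 40.1% to 44.1% in MPP4, MPP3 and CMP. With the set as a block, the order for Nkg7 turned. Its changes from LT-HSC were then 1.30 ± 0.70 in MPP2 and 1.52 ± 0.51 in MPP4, neither of them called. These percentages describe the quantile-normalized means, do not account for the sets of arrays and were not tested. They do not compare levels between probes. Without detection calls it is not known whether the LT-HSC means of Ctsg (6.12), Cst7 (6.57), Mpo (6.69) and Elane (7.18) were background. Mpo averaged 13.19 in GMP, where the highest value of any gene was 13.75. Whether very low or very high signals shaped these percentages was not tested.

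**Figure D2:**
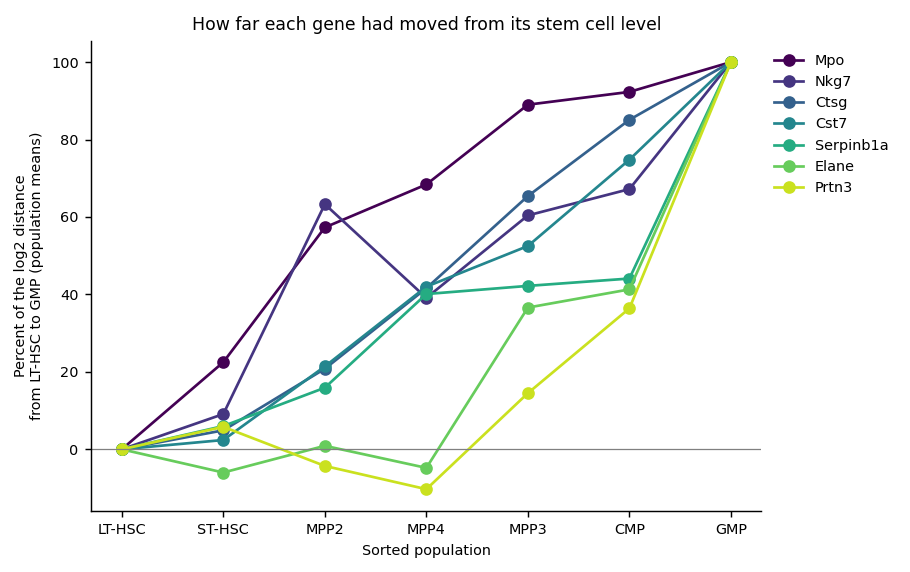
Percent of the log2 distance from the LT-HSC mean (0) to the GMP mean (100) that 7 genes had covered in LT-HSC, ST-HSC, MPP2, MPP4, MPP3, CMP and GMP, ordered by their Mpo means; PreGr and Gr are left out, and lines join the values of a gene and do not stand for a lineage. Mpo lies highest in MPP4, MPP3 and CMP, and Elane and Prtn3 stay near 0 as far as MPP4, in means that do not account for the sets of arrays.

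In each of ST-HSC, MPP2, MPP4 and MPP3, the gene with the largest change from LT-HSC among the 9 was Mpo. In ST-HSC its quantile-normalized change from LT-HSC was 1.47 ± 0.29 (SE; limma adjusted p 0.00099), but with the set as a block it was 1.59 ± 0.60 (adjusted p 0.17). No member was therefore called in both fits, where 0.246% of all genes were called higher, against 1 member and 8.55% of genes in the quantile-normalized fit alone. No LT-HSC array shares a set with ST-HSC, and the means of 6 mature neutrophil markers were 7.43, 6.33 and 7.29 on the 3 ST-HSC arrays and 6.19 to 6.53 in LT-HSC. The part of these cells in the Mpo change was not tested.

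In MPP2, the CD150+ progenitor, Mpo rose by 3.73 ± 0.29 over LT-HSC (adjusted p 3.58e-09; 13.3-fold), and by 3.85 ± 0.60 with the set as a block. No LT-HSC array shares a set with MPP2, so the blocked change runs through the MPP3 arrays of sets 2 and 3. Mpo was the 1 member called in both fits, where 2.4% of all genes were called higher. Nkg7 changed by 2.15 ± 0.32 in the quantile-normalized fit and 1.30 ± 0.70 in the blocked fit (adjusted p 0.229), and Ctsg by 1.36 ± 0.33 and 0.04 ± 0.72 (adjusted p 0.977). Of 5 erythroid markers 2 rose, with a list mean of 8.25 to 8.48 in MPP2 against 6.95 to 7.44 in LT-HSC. No mast cell and basophil or T and NK cell marker was called in both fits. The mean of the 6 mast cell and basophil markers was 6.80 to 7.33 in MPP2 and 5.90 to 6.26 in LT-HSC. The mean of 12 T and NK cell markers, whose cells also express Nkg7, was 6.45 to 6.49 in MPP2 and 6.19 to 6.35 in LT-HSC. The part of these cells in the result was not tested.

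In MPP4, the Flk2+ progenitor, Mpo rose by 4.44 ± 0.26 (adjusted p 2.23e-12; 21.7-fold), Ctsg by 2.72 ± 0.29 and Serpinb1a by 0.85 ± 0.16 (1.33 ± 0.26 with the set as a block), which made 3 members beside 0.873% of all genes called higher. Cst7 missed the call with the set as a block (2.01 ± 0.58, adjusted p 0.0615). Elane and Prtn3 changed by -0.22 ± 0.26 and -0.27 ± 0.30. With the set as a block their changes were 0.08 ± 0.46 and 0.45 ± 0.39, and neither fit called them. With the median of each array subtracted in place of quantile normalization, Serpinb1a changed by 0.47 (adjusted p 0.0653), and with the arrays of set 2 alone, 1 LT-HSC and 2 MPP4, only Mpo was called (Ctsg 0.283, Serpinb1a 0.514). Of 5 megakaryocyte markers 1 fell, with a list mean of 6.84 to 7.33 in MPP4 and 7.87 to 8.63 in LT-HSC, and 1 of 6 monocyte and macrophage markers rose. Their part was not tested.

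MPP3, the CD48+ and CD150- progenitor, had the largest changes from LT-HSC among the multipotent populations for Mpo (5.79 ± 0.29, adjusted p 2.24e-13; 55.3-fold) and Ctsg (4.27 ± 0.33; 19.3-fold). Both rose, as did Cst7 (2.66 ± 0.34), which made 3 members beside 2.27% of all genes. With the set as a block, each change equals the difference between MPP3 3 and LT-HSC 4 alone, so that fit adds no replicated comparison. In the blocked fit these changes were 5.95 ± 0.50, 3.26 ± 0.60 and 2.29 ± 0.67, and the last had an adjusted p of 0.0404 that became 0.0505 without GMP 2. Elane changed by 1.68 ± 0.30 in the quantile-normalized fit and 1.30 ± 0.53 in the blocked fit (adjusted p 0.134). Of the markers of other cells, 2 of 5 for B and plasma cells, 1 of 12 for T and NK cells, 1 of 6 for mast cells and basophils and 1 of 5 for erythroid cells rose as well, and their part was not tested.

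ST-HSC, MPP2 and 2 of the MPP3 arrays lie in 1 set, so the comparison of MPP3 with ST-HSC and MPP2 can be read within that set. Against ST-HSC, 6 members rose in MPP3: Mpo by 4.32 ± 0.31 (adjusted p 1.63e-09), Ctsg by 3.95 ± 0.35, Cst7 by 2.54 ± 0.36, Elane by 1.95 ± 0.32, Nkg7 by 1.74 ± 0.34 and Serpinb1a by 0.76 ± 0.19, beside 1.58% of all genes. Within the set the differences of the same 6 were 4.36, 4.26, 2.65, 2.26, 2.08 and 0.88, which are also the changes of the blocked fit. The 2 MPP3 and the 3 ST-HSC arrays of the set did not overlap for any of them. The call for Serpinb1a ended without ST-HSC 1, ST-HSC 3, MPP3 1 or MPP3 2 (adjusted p 0.0771 to 0.132 in the quantile-normalized fit). It also ended with only the arrays compared (0.0826). With the median of each array subtracted the calls for Serpinb1a (adjusted p 0.392) and Nkg7 (0.0539) ended. With no further normalization the calls of Elane (adjusted p 0.0808), Nkg7 (0.191) and Serpinb1a (0.507) ended. Of the 6 mast cell and basophil markers 3 rose, with a list mean of 6.91 to 7.44 in MPP3 and 5.96 to 6.08 in ST-HSC. So did 4 of 12 T and NK cell, 2 of 5 B and plasma cell, 1 of 5 eosinophil and 1 of 6 monocyte and macrophage markers, while 1 of 5 megakaryocyte markers fell. Their part was not tested.

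Against MPP2, 3 enzyme genes rose in MPP3: Ctsg by 2.91 ± 0.35 (adjusted p 1.05e-05; 7.52-fold), Mpo by 2.06 ± 0.31 and Elane by 1.64 ± 0.32, beside 0.502% of all genes. Nkg7 did not pass the test, with a change of -0.10 ± 0.34. Without MPP3 1, the array with the highest enzyme values, the calls of Mpo (blocked adjusted p 0.0567) and Elane (0.192) ended, and the call of Elane also ended without MPP2 1 (0.0593 in the quantile-normalized fit). Both calls ended with only the arrays compared (0.0699 for Mpo, 0.342 for Elane) and with the arrays of set 3 alone (0.262 and 0.275), and that of Elane also with the median of each array subtracted (0.118) and with no further normalization (0.375); Ctsg kept its call in each of these. Of 5 megakaryocyte markers 3 fell, with a list mean of 7.04 to 7.59 in MPP3 and 8.59 to 8.98 in MPP2. No B and plasma cell or T and NK cell marker was called higher in both fits. The mean of 5 B and plasma cell markers was 8.47 to 8.55 in MPP3, 7.03 to 8.33 in MPP2 and 6.51 to 6.68 in LT-HSC, with Jchain at 11.23, 7.87 and 5.05. The T and NK cell marker mean was 6.64 to 6.98 in MPP3, and the part of these cells in the members' changes was not tested.

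MPP3 and MPP4 share only set 2, with 1 and 2 arrays. No member was called in both fits, where 0.125% of all genes were called higher in MPP3, against 3 members and 0.722% of genes in the quantile-normalized fit. These 3 were Elane (1.90 ± 0.29, adjusted p 0.000293), Ctsg (1.56 ± 0.32) and Mpo (1.34 ± 0.28), and with the set as a block they changed by 1.22 ± 0.46, 0.84 ± 0.52 and 0.72 ± 0.43 (adjusted p 0.202 to 0.483).

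**Figure D3:**
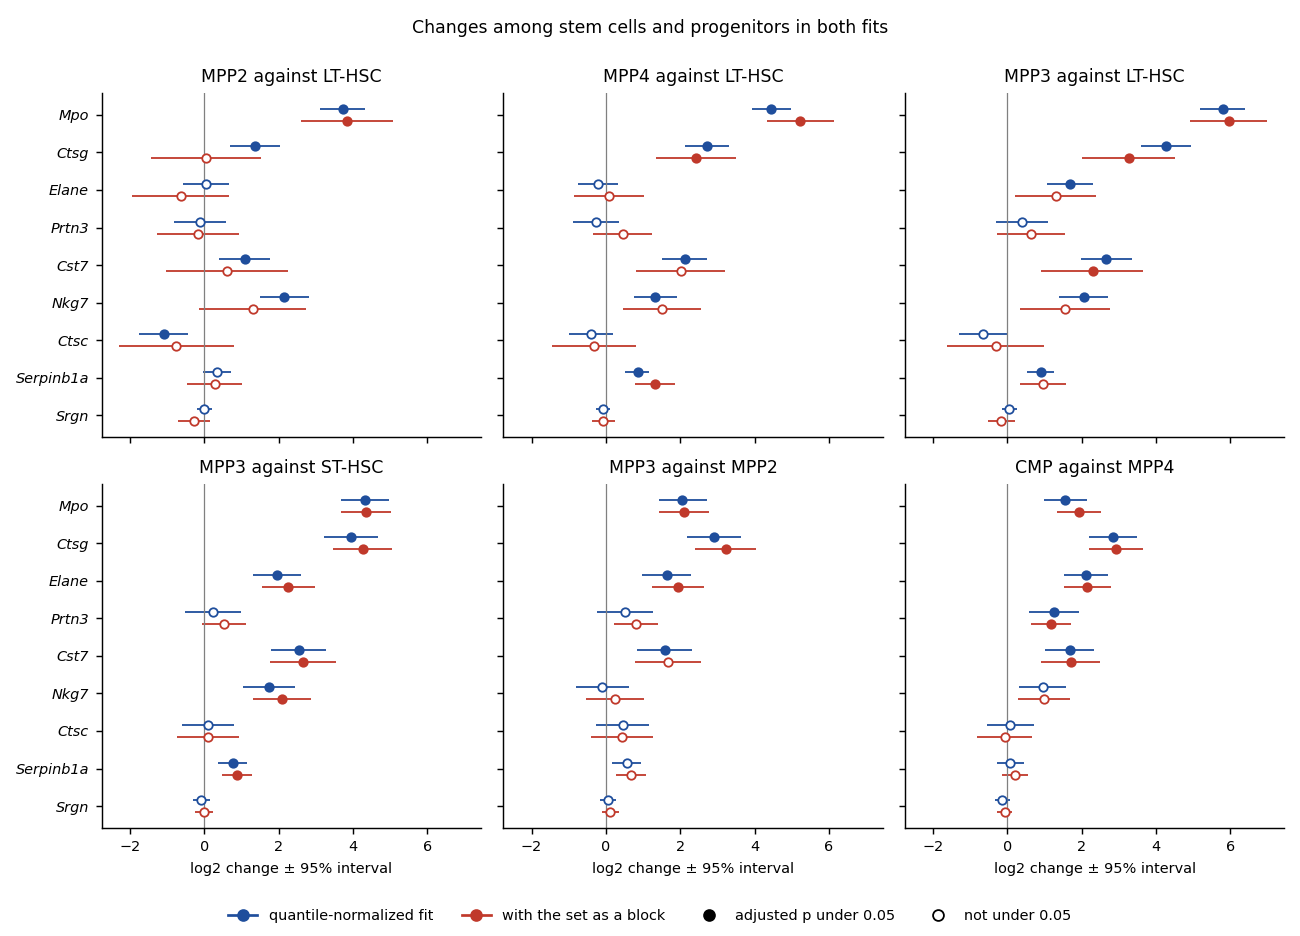
Log2 change with its 95% interval (horizontal axis) of the 9 genes (vertical axis) in 6 comparisons of stem cells and progenitors, in the quantile-normalized fit (blue) and with the set as a block (red); filled points have an adjusted p under 0.05. Mpo is filled in both fits in all 6 panels, and Prtn3 only in CMP against MPP4.

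CMP and 3 of the MPP4 arrays also lie in 1 set. All 4 enzyme genes and Cst7 rose in CMP: Ctsg by 2.84 ± 0.32 (adjusted p 1.38e-06; 7.16-fold), Elane by 2.11 ± 0.29, Cst7 by 1.67 ± 0.32, Mpo by 1.56 ± 0.28 and Prtn3 by 1.25 ± 0.33, beside 2.57% of all genes. Within the set these differences were 2.92, 2.15, 1.70, 1.92 and 1.17, which are also the changes of the blocked fit. The 3 CMP arrays lay above the 3 MPP4 arrays for each. Nkg7 changed by 0.95 ± 0.31 (adjusted p 0.0673), and Ctsc, Serpinb1a and Srgn by 0.08, 0.08 and -0.14. The call for Prtn3 ended without any 1 of the CMP arrays (adjusted p 0.0584 to 0.111), and with no further normalization (0.0629), and that for Cst7 without MPP4 1 (blocked adjusted p 0.0527). The mean of 6 monocyte and macrophage markers was 7.75 to 8.20 in CMP and 6.59 to 6.84 in MPP4, and that of the mast cell and basophil markers 7.64 to 7.76 and 6.11 to 6.58, with 4 of 6 higher in both fits in each list. Of 5 megakaryocyte markers 4 rose (list mean 8.63 to 8.69 in CMP, 6.84 to 7.33 in MPP4), and of 5 erythroid markers 2 rose (8.30 to 8.41 and 7.15 to 7.73). Of 6 mature neutrophil markers 1 rose. The part of these cells in the result was not tested.

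The means of 6 members were highest in GMP, but GMP and CMP share no set. Elane changed by 2.69 ± 0.30 from CMP to GMP in the quantile-normalized fit (adjusted p 2.63e-07; 6.45-fold) and by 2.10 ± 0.55 in the blocked fit (adjusted p 0.0582). Of the 9 members, 6 were higher in the quantile-normalized fit, where 5.44% of all genes were, and none in both fits, where 0.527% were. Prtn3 changed by 1.71 ± 0.34, Cst7 by 1.28 ± 0.34, Serpinb1a by 1.18 ± 0.18, Nkg7 by 1.11 ± 0.32 and Srgn by 0.42 ± 0.10. With the set as a block these were 0.81, 0.95, 0.53, 0.74 and 0.29. For Mpo the change was 0.50 ± 0.29 without and -0.49 ± 0.52 with the block. Of the markers of other cells, 2 of 6 for monocytes and macrophages and 2 of 5 for eosinophils rose. For T and NK cells 1 of 12 rose, and for mature neutrophils 1 of 6. Of 5 megakaryocyte markers 2 fell, and of 5 erythroid markers 1 fell. The part of these cells was not tested.

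GMP 4 and MPP3 3 lie in 1 set, which ties these populations together in the blocked fit. From MPP3 to GMP, 5 members rose: Elane by 2.90 ± 0.30 (adjusted p 4.91e-08; 7.46-fold), Cst7 by 2.41 ± 0.34, Prtn3 by 2.29 ± 0.34, Ctsg by 2.26 ± 0.33 and Serpinb1a by 1.22 ± 0.18, beside 2.18% of all genes. In the blocked fit the changes were 3.03, 2.38, 1.81, 2.66 and 1.12 in the same order. They equal the differences of the single pair of arrays in set 2 and are no further observation. Mpo, already high in MPP3, changed by 0.71 ± 0.29 (adjusted p 0.0839). The blocked call of Cst7 ended without GMP 2 (adjusted p 0.0502). The monocyte and macrophage marker mean was 9.10 to 9.35 in GMP and 6.49 to 6.92 in MPP3, with 5 of 6 markers higher in both fits. Of 12 T and NK cell, 6 mast cell and basophil and 5 eosinophil markers, 1 each rose, and 2 of 5 B and plasma cell markers fell. Their part was not tested. Sorted populations are mixtures, so on these arrays fewer cells of a type and less RNA per cell cannot be told apart.

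GMP 1 to 3, PreGr and Gr lie in 1 set, so the blocked fit compares the path to granulocytes within it. Changes given first are those of the quantile-normalized fit, whose GMP mean also holds GMP 4 of set 2. From GMP to PreGr, Ctsc rose by 1.21 ± 0.32 (adjusted p 0.00781), the 1 member beside 6.63% of all genes called higher. Cst7, the gene of its inhibitor, fell by 1.39 on the log2 scale (SE 0.34, adjusted p 0.0035), and Srgn fell by 0.36 (SE 0.10, adjusted p 0.0115), 2 members beside 8.98% of genes called lower. The 4 enzyme genes did not pass both fits: Mpo changed by -0.43 ± 0.29, Ctsg by -0.91 ± 0.33 (adjusted p 0.0583), Elane by -0.75 ± 0.30 (0.0932) and Prtn3 by -0.37 ± 0.34, although within the set all 3 PreGr arrays lay below all 3 GMP arrays for each. Elane and Prtn3 passed the blocked fit alone (-0.91 ± 0.30 and -0.74 ± 0.26), and a fit of the set 5 arrays by themselves called 7 members, Ctsc higher and 6 lower, without Srgn (adjusted p 0.0922). The calls of Ctsc and Srgn ended without PreGr 3 (adjusted p 0.0561 and 0.195), that of Ctsc also without GMP 1, GMP 2, GMP 3 or PreGr 1 (blocked adjusted p 0.0516 to 0.0708), and that of Srgn under median scaling (adjusted p 0.359). With no further normalization the calls of Cst7 (0.0572) and Srgn (0.791) ended. PreGr 3 had the lowest value of the PreGr arrays for 8 of the 9 members, all but Ctsc. The mean of the monocyte and macrophage markers was 10.07 to 10.54 in PreGr and 9.10 to 9.35 in GMP, and that of 5 eosinophil markers 8.77 to 9.88 and 7.49 to 7.76, with 4 of 6 and 4 of 5 markers higher in both fits. All 6 mature neutrophil, 7 of 12 T and NK cell, 3 of 5 B and plasma cell and 1 of 6 mast cell and basophil markers rose as well. Of the T and NK cell markers 1 fell. The part of these cells was not tested.

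From PreGr to Gr, 7 members fell: Nkg7 by 2.26, Ctsg by 2.11, Elane by 2.06, Prtn3 by 1.91, Mpo by 1.78, Ctsc by 1.73 and Cst7 by 1.61 on the log2 scale, with SE of 0.31 to 0.37 and adjusted p of 1.49e-05 for Nkg7 to 0.0014 for Cst7. In all, 11.2% of genes were called lower. Ctsg thus stood 4.32-fold and Mpo 3.43-fold below PreGr. Every Gr array lay below every PreGr array for these 7 genes. Serpinb1a did not follow them (0.28 ± 0.19, adjusted p 0.41), and Srgn rose by 0.73 ± 0.11 (adjusted p 1.14e-05), the 1 member beside 8.12% of genes called higher. With the median of each array subtracted, Srgn changed by 0.47 (adjusted p 0.12), and with no further normalization by 0.53 (0.32). The T and NK cell marker mean was 7.29 to 7.51 in PreGr and 6.65 to 6.83 in Gr, the monocyte and macrophage mean 10.07 to 10.54 and 8.50 to 9.45, and the eosinophil mean 8.77 to 9.88 and 7.16 to 8.20, while the mature neutrophil mean was 11.10 to 11.54 and 12.85 to 13.02. Their part in the falls was not tested.

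Against GMP, Gr showed the drop in full. Ctsg fell by 3.02 (SE 0.33; 8.11-fold), Cst7 by 3.00, Nkg7 by 3.00, Elane by 2.81, Prtn3 by 2.28 and Mpo by 2.21 on the log2 scale, 6 members beside 19.2% of all genes, with adjusted p from 9.6e-09 for Elane to 3.25e-06 for Prtn3. In the blocked fit, within set 5 and without GMP 4, these 6 changed by -3.09, -3.08, -3.11, -2.98, -2.65 and -2.24 in the same order. Serpinb1a rose by 0.67 ± 0.18 (adjusted p 0.0038) and Srgn by 0.37 ± 0.10 (0.00467), 2 members beside 15.2% of genes. These increases were not called with the median of each array subtracted (0.56, adjusted p 0.0728, and 0.16, adjusted p 0.576) or with no further normalization (adjusted p 0.0506 and 0.288). Ctsc stood at -0.51 ± 0.32 against GMP. All 6 mature neutrophil and 4 of 5 B and plasma cell markers rose. Of 12 T and NK cell markers 3 rose and 1 fell, and of 6 monocyte and macrophage markers 1 rose and 2 fell. Of 5 eosinophil markers 1 rose and 1 fell. For mast cells and basophils 2 of 6 rose, for erythroid cells 2 of 5 and for megakaryocytes 1 of 5, and none fell. The part of these cells was not tested.

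The Gr arrays spread widely for the falling genes. Gr 1 had the highest and Gr 3 the lowest value for Mpo, Ctsg, Elane, Cst7, Nkg7 and Ctsc, while Prtn3 stood at 9.61, 8.34 and 8.37. The monocyte and macrophage marker mean was 9.45, 8.75 and 8.50 on Gr 1, Gr 2 and Gr 3, the eosinophil mean 8.20, 7.71 and 7.16, and the mast cell and basophil mean 8.90, 8.65 and 7.63. The mature neutrophil mean was 12.85, 12.96 and 13.02. The part of other cells in the spread was not tested.

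**Figure D4:**
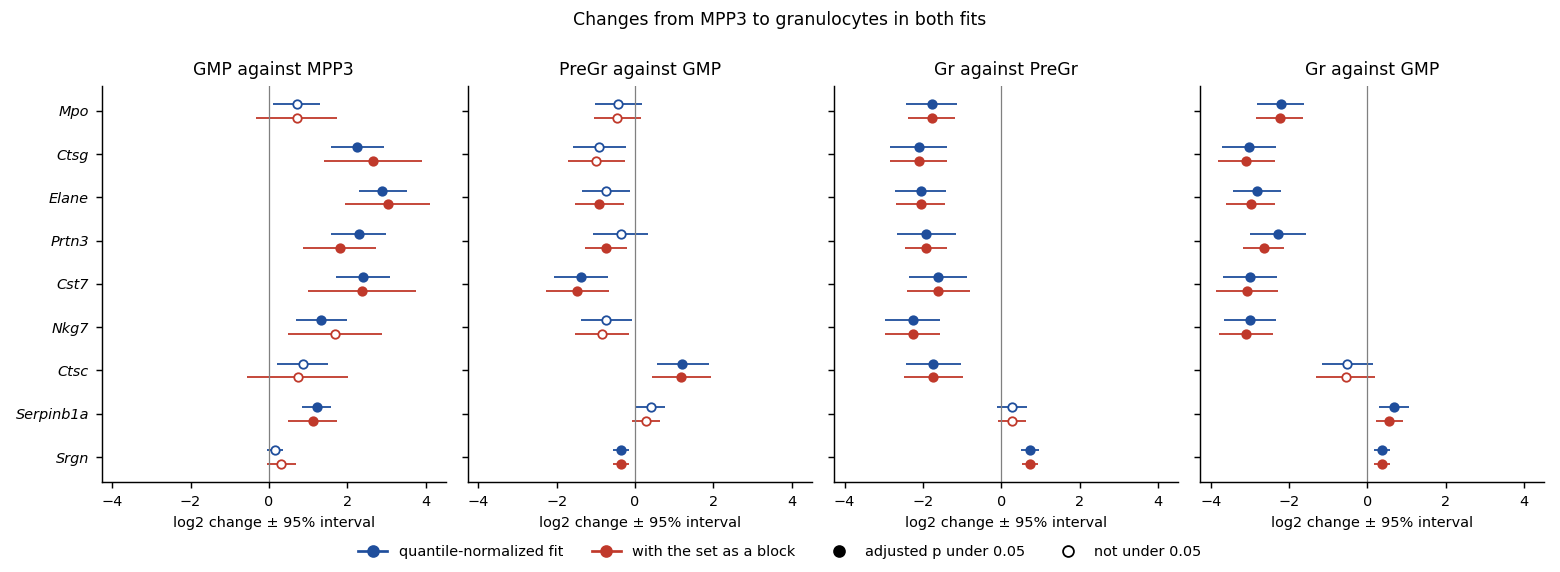
Log2 change with its 95% interval (horizontal axis) of the 9 genes (vertical axis) from MPP3 to GMP, GMP to PreGr, PreGr to Gr and GMP to Gr, in the quantile-normalized fit (blue) and with the set as a block (red); filled points have an adjusted p under 0.05. In Gr against PreGr 7 genes lie left of 0 and filled, Srgn lies right of 0 and filled, and Serpinb1a is open.

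Myeloperoxidase needs haem and, while it folds, the chaperones calreticulin, calnexin and Hyou1. Of 10 measured genes of haem synthesis and these chaperones, 5 rose in CMP against MPP4, beside 2.57% of all genes, and none fell (median 0.34, all genes 0.01), with Alas1, the first enzyme of haem synthesis, at 0.86 ± 0.19, and its later enzymes Alad at 0.81 ± 0.23 and Urod at 0.74 ± 0.19. The calls of Alad and Urod ended without any 1 of the CMP arrays, without MPP4 5 and with the replicate block. That of Alad also ended without MPP4 4 and with no further normalization. Alad averaged 8.80 in MPP4, 9.61 in CMP and 8.77 in GMP. The erythroid marker mean was 7.33, 8.36 and 7.23 in the same order, and the part of erythroid cells was not tested. In GMP against MPP3 2 rose beside 2.18% of all genes, Alas1 by 2.76 ± 0.20 (adjusted p 3.55e-11) and Hyou1 by 1.03 ± 0.12, and none fell. Alas1 also rose from CMP to GMP by 2.02 ± 0.20, and by 1.92 ± 0.30 with the set as a block. Against LT-HSC, 1 of the 10 genes fell in each of MPP2, MPP3 and MPP4, where Mpo rose, and none rose. This was Fech, a haem synthesis gene, at -0.92 ± 0.17, -0.89 ± 0.17 and -0.77 ± 0.15, beside 2.05%, 1.75% and 1.11% of all genes. With no further normalization the sign of Fech turned in MPP2 and MPP3. The list mean was 8.92 in LT-HSC and 8.59, 8.69 and 8.66 in MPP2, MPP3 and MPP4. In PreGr against GMP 4 of 10 fell, beside 8.98% of all genes (median -0.43), with Calr at -1.16 ± 0.12, Alas1 at -0.95 ± 0.20 and Hyou1 at -0.82 ± 0.12. In Gr against GMP 8 of 10 fell and 1 rose, beside 19.2% and 15.2% of all genes (median -0.95, all genes 0.01), with Calr at -2.01 ± 0.12, Hyou1 at -1.77 ± 0.12 and Cpox, a late enzyme of haem synthesis, at -1.61 ± 0.19.

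Other cargo of primary granules and lysosomes did not move as 1 group. Of 19 measured genes 8 rose in GMP against MPP3, beside 2.18% of all genes, and none fell (median 0.60, all genes 0.03). They included Ms4a3, a membrane protein of granulocyte-monocyte progenitors (3.15 ± 0.44, and 4.81 ± 0.69 with the set as a block), the lysosomal protease gene Ctsh (2.18 ± 0.16) and Prss57, a further granule serine protease (2.11 ± 0.23). In Gr against GMP 9 rose and 7 fell, beside 15.2% and 19.2% of all genes (median 0.01). Lyz2, the lysozyme gene, rose by 3.57 ± 0.19, while Ms4a3 fell by 2.91 and Prss57 by 1.69 on the log2 scale. Ms4a3 also rose in MPP3 against ST-HSC (2.90 ± 0.47), CMP against MPP4 (2.32 ± 0.42) and GMP against CMP (3.51 ± 0.44).

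Among 15 other protease inhibitors and cathepsins, 6 rose, beside 6.63% of all genes, and none fell in PreGr against GMP (median 0.55, all genes -0.02). Stfa3, a stefin that inhibits cysteine cathepsins, rose by 3.46 ± 0.18 and Ctss, the cathepsin S gene, by 2.14 ± 0.29. In Gr against GMP 7 rose, beside 15.2% of all genes, and none fell, with Stfa3 at 6.71 ± 0.18, Stfa2 at 4.70 ± 0.24 and Slpi, a secreted inhibitor of elastase and cathepsin G, at 1.77 ± 0.36. From GMP to Gr, Cst7 and these named inhibitors thus changed in opposite directions. From MPP3 to GMP, where Cst7 rose, 3 of the 15 genes rose, beside 2.18% of all genes, and none fell. Among them were the cysteine protease inhibitor genes Cstb (1.45 ± 0.28) and Cst3 (0.30 ± 0.10). Of the 13 genes that build glycosaminoglycan chains such as those of serglycin, 3 rose and 1 fell in Gr against GMP (median 0.02), counts close to what the 15.2% and 19.2% of all genes give, with Chst15, a chondroitin sulfate sulfotransferase, at 2.07 ± 0.19, Xylt1, which adds the first sugar of a chain, at 0.88 ± 0.12, and B3galt6, which extends the linker, at -1.06 ± 0.15.

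Of 10 transcription factor genes of granulocytes and monocytes, 2 rose in GMP against MPP3, beside 2.18% of all genes, and none fell (median 0.56): Cebpd by 2.03 ± 0.21 (0.77 ± 0.18 with the set as a block) and Irf8, a factor of the monocyte path, by 1.97 ± 0.19. In PreGr against GMP 4 rose and 2 fell, beside 6.63% and 8.98% of all genes. Cebpe, a factor needed for secondary granule genes, rose by 1.23 ± 0.13 and Myb, a progenitor factor known to act on Mpo and Elane, fell by 1.42 on the log2 scale. Cebpe also rose in GMP against CMP (1.32 ± 0.13, and 0.99 ± 0.20 with the set as a block). In MPP3 it rose against LT-HSC (0.54 ± 0.13) and ST-HSC (0.53 ± 0.14). Myb fell by a further 0.77 from PreGr to Gr. All 10 measured genes of secondary and tertiary granules rose from GMP to PreGr, beside 6.63% of all genes (median 4.93), with Ltf, the lactoferrin gene, at 6.43 ± 0.11 (adjusted p 1.64e-25), Ngp at 6.10 ± 0.34 and Camp at 5.73 ± 0.25. From PreGr to Gr 4 of them rose, beside 8.12% of all genes, and none fell, with Mmp9 at 3.04 ± 0.21. Of the 10, Hp and Cybb were also higher in earlier populations. In MPP3 against LT-HSC these 2 rose by 1.58 ± 0.18 and 2.23 ± 0.17, beside 2.27% of all genes. In GMP against CMP they rose by 2.69 ± 0.18 and 3.72 ± 0.17, beside 0.527% of all genes. None of the 10 fell in either comparison.

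**Figure D5:**
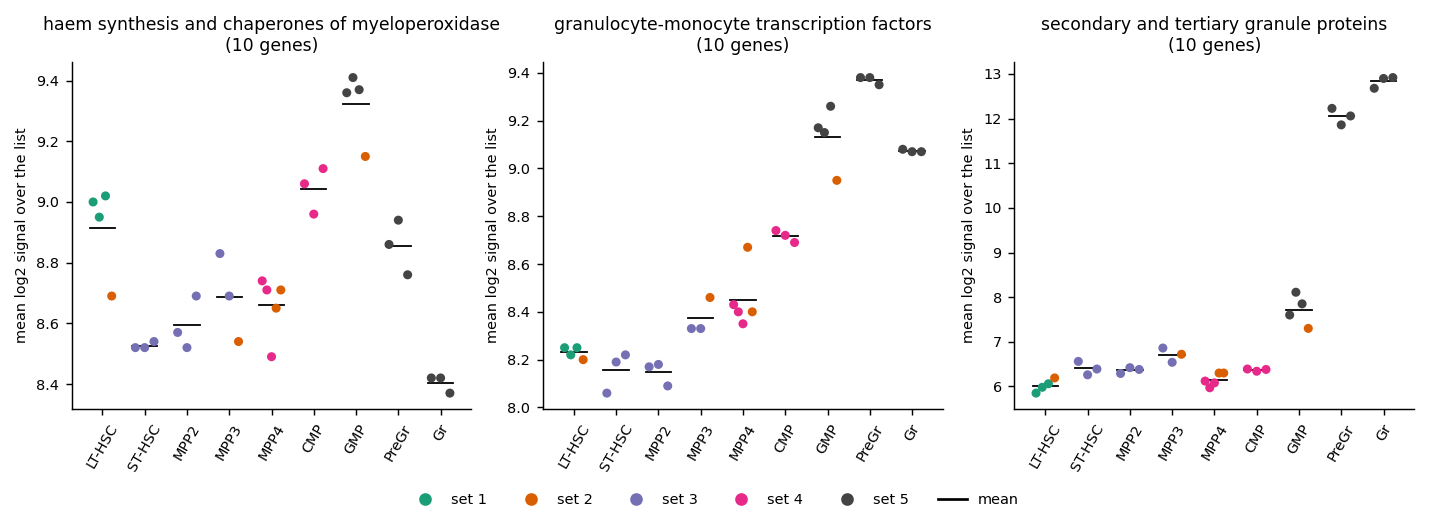
Mean log2 signal over 3 gene lists of 10 genes each (vertical axes, different scales) on each array of the 9 populations (horizontal axis), coloured by set with bars at the population means. Haem and chaperone genes average 9.32 in GMP and 8.40 in Gr, and secondary and tertiary granule genes 7.71 in GMP and 12.83 in Gr.

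The likeness of patterns was measured as Pearson's r over the 9 population means among genes whose means spanned at least 2 log2 units, as a description over points that share sets of arrays. Closest to Mpo were Cd48 (0.953), a sort marker here, Plac8 (0.944) and Ctsg (0.94). Ctsg and Cst7 were closest to each other (0.986), followed by Ccl9 and Lgals1 for both. Closest to Elane were Ms4a3 (0.992), Med21 (0.961) and Prtn3 (0.959), and to Prtn3 Med21 (0.978), Elane and Mgl2 (0.956). Ctsc lay closest to Plekha1 (0.977), Pcyox1 (0.952) and Ms4a6d (0.945), and Serpinb1a to Nin (0.984), Abcd2 (0.982) and Trem3 (0.979). Nkg7 and Srgn had no r above 0.894 (Pclaf) and 0.854 (Acod1); next were Gen1 and Gatm, and Hcar2 and Prps1l1.

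Prtn3 and Elane are neighbours on chromosome 10 in the RefSeq gene order. Their nearest measured neighbours outside the pair, Plppr3 and Med16, had population means within 0.67 and 0.62 log2 units of each other, against ranges of 2.96 for Prtn3 and 4.85 for Elane. Ctsg lies on chromosome 14 between Mcpt8, a basophil protease gene, and Gzme. Mcpt8 ranged over 4.80 log2 units, from 5.85 in LT-HSC to 10.65 in Gr, and Gzme over 0.51. Beside Mpo on chromosome 11, the lactoperoxidase gene Lpo ranged over 0.66.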

How the data were processed

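RNA was measured on 31 Affymetrix mouse gene arrays. The authors deposited log2 signals from RMA, per the submitters' processing notes, with no version given; they range from 1.39 to 14.29. Arrays carry no detection calls here, and their number limits the precision. Of 35557 probes, 21789 pair with 1 gene in the probe annotation. Symbols were updated through the RefSeq gene table, and the brightest probe stood for each gene with several, leaving 19938 genes. Some genes of the lists are not reported here, and counts are over the measured genes.

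Values were quantile-normalized over all probes and fitted with limma 3.58.1 in R 4.3.3 to all 31 arrays, with 1 mean per population (22 residual degrees of freedom). The fit with the set of arrays as a block has 18. Sets were found from arrays that share 2 or more identical values. Calls are limma's moderated two-sided test at a Benjamini-Hochberg adjusted p under 0.05 over all genes. In 13 comparisons all 9 members were described, with up to 3 genes of each pathway list that both fits called with the largest change, the 3 genes most like each member, and the sort markers. Neighbouring genes and the cell type marker Jchain were named after their values were seen. The members, lists and rules were chosen with earlier results of these data known. The alternatives were the set block, no further normalization, median scaling, a replicate block, the mean over probes, a filter on dim genes, only the arrays compared, array weights, each array left out, and arrays of 1 set. To check whether replicate numbers pair the samples, residuals of arrays with the same number were correlated over genes: every pair was above 0.1 only in MPP4 against LT-HSC (0.126 to 0.271 over 4 pairs; -0.0292 to 0.0603 in the blocked fit), and the labels state no shared animal. The fits were also run on simulated data with independent noise and set offsets taken from the blocked fit. Their outcome there is not reported here and supports no result above. Python 3.11.15 with matplotlib 3.10.9 drew the figures.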

Additional observations from a re-analysis of the deposited data

Results flagged for a closer look

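Each member was checked for a sample far from the others of its group in the 27 groups of 4 or 5 arrays, where chance alone flags about 1 group in 20. Prtn3 stood at 9.96 on GMP 4, below the other GMP arrays at 11.26 to 11.52, with a gap of 0.835 of the group's range, above the critical value of Dixon's test at the 95% level. GMP 4 is the GMP array of set 2. Serpinb1a stood at 9.88 on MPP4 5, above the other MPP4 arrays at 9.18 to 9.30, a gap that also exceeds the critical value.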

How the results depend on the processing

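Counts of called members depended on the sets of arrays. With the set as a block they were 0 in ST-HSC against LT-HSC, 1 in MPP2, 3 in MPP3 and 3 in MPP4 against LT-HSC, 0 in MPP3 against MPP4, 0 in GMP against CMP and 5 in PreGr against GMP, from 1, 5, 6, 5, 3, 6 and 3 without it. With no further normalization 8 were called in ST-HSC and 8 in MPP2 against LT-HSC, all higher, 3 in MPP3 against ST-HSC, 2 in MPP3 against MPP2, 5 in MPP3 against MPP4 and 1 in PreGr against GMP, and 3 pathway genes turned: Fech (0.47) and Lamp2 (0.60) in MPP2 against LT-HSC and Fech (0.24) in MPP3 against LT-HSC. With the median of each array subtracted 3 were called in ST-HSC against LT-HSC (1 higher, 2 lower) and 2 in MPP3 against MPP2. The replicate block gave 2 in ST-HSC against LT-HSC and counts within 1.5 times the others in the 12 further comparisons. With only the arrays compared the counts were 2, 1, 1 and 6 in ST-HSC against LT-HSC, MPP3 against MPP2, MPP3 against MPP4 and PreGr against GMP, and with array weights 2 in ST-HSC against LT-HSC, 5 in MPP3 against MPP4 and 7 in PreGr against GMP. Arrays of 1 set gave 1 in MPP4 against LT-HSC, 1 in MPP3 against MPP2, 0 in MPP3 against MPP4 and 7 in PreGr against GMP. Leaving out 1 array gave 2 to 4 members in MPP3 against MPP2, 1 to 3 in MPP3 against MPP4 and 1 to 3 in PreGr against GMP. With the set block it gave 0 to 1 in GMP against CMP, 1 to 5 in MPP3 against MPP2, 1 to 7 in PreGr against GMP, 2 to 5 in MPP3 against LT-HSC and 3 to 5 in MPP4 against LT-HSC. Blocked fits without LT-HSC 4, MPP3 3 or GMP 4 could not be fitted for the comparisons that rest on them. The cause of these differences was not tested. The mean over probes and the filter on dim genes moved no count by more than 1.5 times.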
